A study of Homo sapiens with 40 samples.

Results

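The genes of major histocompatibility complex (MHC) class I antigen presentation described here are HLA-B, HLA-C, HLA-E and HLA-F, which encode class I heavy chains, B2M, which encodes their shared light chain, TAP1 and TAP2, which encode the subunits of the peptide transporter, TAPBP, which encodes the loading chaperone tapasin, and NLRC5, which encodes a regulator of class I transcription. They were taken by gene symbol, in every cell line that gives values for them, and are 9 of the 19280 genes with values in at least 1 line, out of 58336 listed. Of 90 combinations of gene and line, 87 had values. HLA-F had none in LK2, and NLRC5 had none in LK2 and NCIH522. Per the labels, each comparison left out genes at or below an FPKM of 1, so the values of HLA-F and NLRC5 cover only the lines in which they passed that filter.

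The data are 40 RNA-seq libraries of 10 established human cell lines of non-small cell lung cancer. Each line received GSK3368712, which inhibits PRMT1 and related type I enzymes that methylate arginine, or the vehicle dimethyl sulfoxide (DMSO), with 2 libraries per arm and line. The row labels assign EBC1, LK2, NCIH226, NCIH520, SKMES1 and SW900 to lung squamous cell carcinoma (LUSC), and NCIH1563, NCIH1975, NCIH522 and PC9 to lung adenocarcinoma (LUAD). GSK3368712 is written GSK712 in the row labels, sample titles end in D5, which is not spelled out, and no dose or genetic change is spelled out for any line. Each line is a single established cell line, so the line is the replicate of the study and the 2 libraries of an arm only set the error within it. A positive log2 fold change is read as higher with GSK3368712 than with DMSO, going by which name stands first in the row labels, which the values could not check. The libraries are bulk samples, so a change in every cell and a change in the share of cells that express a gene cannot be told apart.

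MHC class I molecules display peptides from inside the cell to CD8 T cells, and HLA-E also to natural killer cells through the CD94/NKG2A receptor. Peptides made by the proteasome are pumped into the endoplasmic reticulum by the TAP1 and TAP2 transporter, where tapasin holds the transporter and the empty heavy chain with its light chain B2M together until a peptide binds. Transcription of these genes rises with interferon through interferon regulatory factors and is driven by NLRC5 together with factors bound at conserved promoter boxes, and many tumours lower it.

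All lines carried epithelial transcripts, with 3 to 5 of 5 epithelial markers listed per line at a summed 70.6 to 12826 parts per 1000000 of the line's mean counts (ppm). Of 7 markers of leukocytes and antigen presenting cells, 0 to 4 were listed per line, at a summed 0 to 383.6 ppm, and PTPRC and CD3E were listed in no line. CD74 was listed in 7 lines at 4.01 to 340.4 ppm, HLA-DRA in 4 lines and HLA-DRB1 in 5. CD14 was listed in SW900 and NCIH1975 at 4.36 to 6.70 ppm, and CD79A in NCIH1975 at 4.86. Markers of fibroblasts and endothelium summed to 6.16 to 1321 ppm, with VWF listed in no line and PECAM1 in NCIH1563 alone, at 19.5 ppm. The squamous marker DSG3 was listed in no line, TP63 in 4 lines of which 2 were LUSC, SOX2 in 5 lines of which 4 were LUSC, and the glandular marker NKX2-1 in 4 lines of which 3 were LUSC, and none of these markers was listed in all lines of one subtype and no line of the other. Mean normalized counts summed to 57647556 to 108557964 per line, and the median log2 fold change over all genes lay between −0.01 and 0.04 per line. The median standard error of the deposited fold changes was 0.11 to 0.13 in the LUSC lines and 0.22 to 0.34 in the LUAD lines, so the LUAD values are less precise.

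The promoters of the members with a matched RefSeq entry share short elements. Those of members whose fold changes are set side by side below are shown for that reason. HLA-E is also compared below, but HLA-E and NLRC5 had no matched promoter, so theirs are not shown. Each sequence runs 5′ to 3′ on the strand of its gene over the 200 bases before the RefSeq transcription start (GRCh38.p14), the most upstream start where a gene has several. Capitals mark matches on either strand to the interferon regulatory factor pattern AANNGAAA, to the NF-kB pattern (GGGA, then NNNN, then CC) and to the CCAAT pattern CCAATCA, some of which overlap. The stretches lie at chr6:31357180-31357379, minus strand for HLA-B, chr6:31272093-31272292, minus strand for HLA-C, chr6:29723234-29723433, plus strand for HLA-F, chr15:44711317-44711516, plus strand for B2M, chr6:32853705-32853904, minus strand for TAP1 and chr6:32838740-32838939, minus strand for TAP2.
HLA-B: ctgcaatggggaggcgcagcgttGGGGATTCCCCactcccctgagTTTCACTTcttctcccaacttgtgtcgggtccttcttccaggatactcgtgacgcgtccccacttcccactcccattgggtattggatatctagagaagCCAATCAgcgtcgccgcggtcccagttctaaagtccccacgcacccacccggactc
HLA-C: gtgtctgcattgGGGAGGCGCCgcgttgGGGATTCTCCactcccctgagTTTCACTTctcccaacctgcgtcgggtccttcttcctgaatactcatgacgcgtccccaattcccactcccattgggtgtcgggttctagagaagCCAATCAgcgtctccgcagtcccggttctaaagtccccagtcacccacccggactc
HLA-F: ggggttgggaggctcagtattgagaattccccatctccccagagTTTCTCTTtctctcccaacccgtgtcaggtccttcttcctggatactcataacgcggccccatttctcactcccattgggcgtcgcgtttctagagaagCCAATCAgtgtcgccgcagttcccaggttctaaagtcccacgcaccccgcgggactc
B2M: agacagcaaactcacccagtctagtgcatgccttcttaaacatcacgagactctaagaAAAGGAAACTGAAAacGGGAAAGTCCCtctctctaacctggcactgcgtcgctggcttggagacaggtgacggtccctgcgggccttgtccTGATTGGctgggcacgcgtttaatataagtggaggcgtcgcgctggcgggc
TAP1: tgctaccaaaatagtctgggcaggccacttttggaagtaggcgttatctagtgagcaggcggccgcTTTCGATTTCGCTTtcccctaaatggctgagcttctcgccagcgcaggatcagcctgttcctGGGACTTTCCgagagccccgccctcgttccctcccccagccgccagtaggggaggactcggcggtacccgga
TAP2: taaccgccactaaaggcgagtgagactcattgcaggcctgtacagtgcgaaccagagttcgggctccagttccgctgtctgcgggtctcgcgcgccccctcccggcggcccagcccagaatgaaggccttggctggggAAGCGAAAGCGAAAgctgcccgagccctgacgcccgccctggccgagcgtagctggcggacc
Motifs were searched on both strands of windows from 250 bases before to 50 bases after the start, of which the table held 35114, and 7 of the 9 members had such a window. All 7 held AANNGAAA, as did 22.8% of all windows. The longer interferon-stimulated pattern (GAAA, then NN, then GAAA), which contains the shorter pattern on the same strand, was found in HLA-F, B2M, TAP1, TAP2 and TAPBP and in 3.57% of all windows. It had no match in the windows of HLA-B and HLA-C. CCAATCA was found in HLA-B, HLA-C, HLA-F and B2M and in 6.95% of all windows. The NF-kB pattern was found in HLA-B, HLA-C, B2M, TAP1 and TAPBP and in 25.6% of all windows. TGACG, a core of cyclic AMP response elements and not in capitals, was found in HLA-B, HLA-C, B2M and TAP2 and in 24.6% of all windows. The windows of HLA-B and HLA-C were identical at 88.5% of aligned columns, those of HLA-B and HLA-F at 79.7%, and those of HLA-C and HLA-F at 78.9%.

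Of the members, 7 lie on chromosome 6 within the MHC region, B2M lies on chromosome 15 and NLRC5 on chromosome 16. In the GENCODE 29 annotation (GRCh38), the class I heavy chain genes are HLA-F at chr6:29722775-29738528, HLA-E at chr6:30489467-30494205, HLA-C at chr6:31268749-31272130 and HLA-B at chr6:31269491-31357188. The annotated span of HLA-B overlaps HLA-C on the same strand, and class I heavy chain genes are polymorphic and alike in sequence, so their separate values are uncertain where reads fit several of them. TAP2 is at chr6:32821833-32838780, TAP1 at chr6:32845209-32853978 and TAPBP at chr6:33299694-33314387. TAP1 overlaps PSMB9 and PSMB8-AS1, and HLA-F overlaps HLA-F-AS1, on the opposite strand. The library kit keeps strand, but whether the quantification used it is not given in the sources used here, so the values of these 2 members are uncertain in that respect. B2M is at chr15:44711487-44718877 and NLRC5 at chr16:56989485-57083531.

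Levels were computed from the deposited mean normalized count of each gene and line, which pools both arms, as ppm of the line's sum. Per kilobase of the longest coding transcript, the median level over lines was 268.8 for B2M, 160.5 for HLA-C, 125.3 for HLA-B, 64.8 for HLA-E, 27.9 for TAPBP, 17.4 for TAP1, 11.8 for TAP2, 5.93 for HLA-F and 3.72 for NLRC5. B2M was above HLA-C in 9 of 10 lines, and HLA-E above TAPBP in 9 of 10. HLA-C was above HLA-B, and HLA-B above HLA-E, in only 7 of 10 lines each, and HLA-F above NLRC5 in 6 of 8, so these neighbours are not separated beyond the spread between lines. Without division by length, the median was 67.0 ppm for TAP2 and 51.4 for TAP1, and 25.4 for NLRC5 and 9.70 for HLA-F. The order within these 2 pairs thus depends on the transcript length used.

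LK2 had the lowest level of all 7 members listed in it. HLA-B stood at 4.75 ppm in LK2, against 592.7 in SW900, its highest line. TAP1 stood at 2.96 ppm in LK2 and 122.0 in NCIH226, its highest line. B2M ranged from 89.3 ppm in LK2 to 2361 in EBC1, and TAP2, whose highest level was the smallest multiple of its lowest among the members (6.02), from 16.8 in LK2 to 101.1 in EBC1. HLA-F was lowest in NCIH522 at 1.52 and highest in NCIH1563 at 16.1 ppm, and NLRC5 lowest in NCIH520 at 6.41 and highest in NCIH1975 at 61.0.

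**Figure D1:**
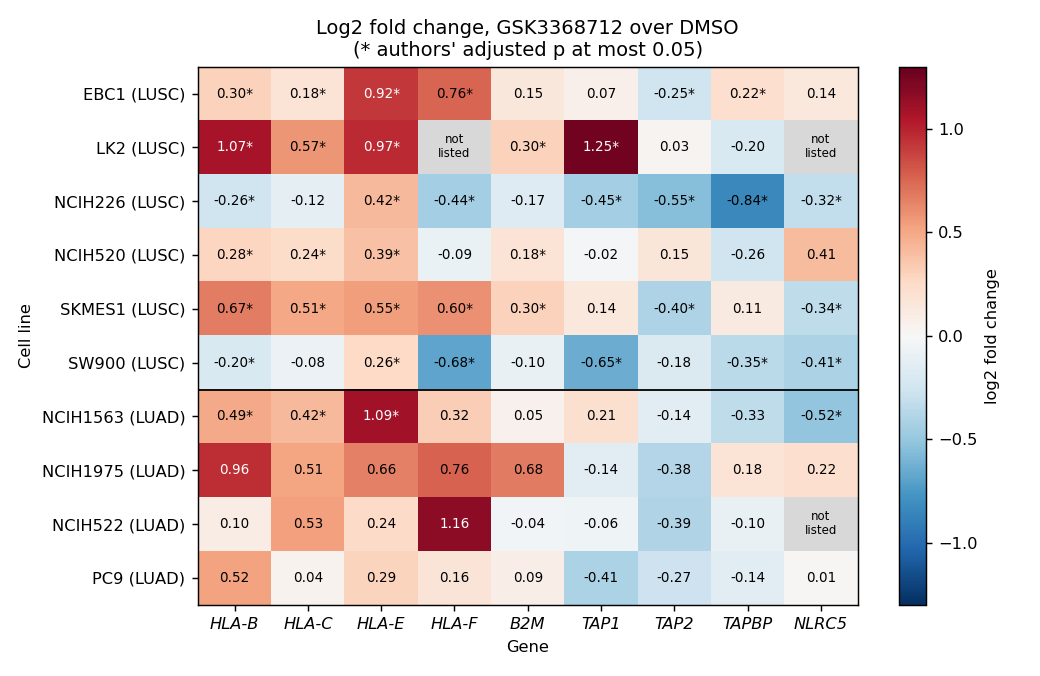
Log2 fold change of GSK3368712 over DMSO for each of 9 genes (columns) in each of 10 cell lines (rows), from the authors' deposited table, with LUSC lines above the rule and LUAD lines below it. Red is higher and blue lower with GSK3368712, an asterisk marks an adjusted p of at most 0.05, and the HLA-E column is the only column with a positive value in every line.

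The first comparison was GSK3368712 with DMSO within each line. By the adjusted p of the authors' deposited table at 0.05, 24 of the 87 member values were higher and 15 were lower with GSK3368712, and 48 were not called. Over all genes and lines, 13.7% of values were called higher and 13.8% lower. The members differed in direction: HLA-E and HLA-C were called higher in 7 and 5 lines and lower in none, whereas TAP2 and NLRC5 were called lower in 3 and 4 lines and higher in none. Only 4 member values reached a log2 fold change of 1 in size, and all 4 were positive: TAP1 and HLA-B in LK2, HLA-E in NCIH1563 and HLA-F in NCIH522, the last of which was not called.

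HLA-E, the non-classical heavy chain that presents leader peptides of other class I molecules, was positive in all 10 lines. The authors' deposited table gives HLA-E log2 fold changes of 0.92 in EBC1, 0.97 in LK2, 0.42 in NCIH226, 0.39 in NCIH520, 0.55 in SKMES1 and 0.26 in SW900. Among LUAD lines, its entries in the authors' deposited table are 1.09 in NCIH1563, 0.66 in NCIH1975, 0.24 in NCIH522 and 0.29 in PC9. All 6 LUSC lines and NCIH1563 passed the authors' adjusted p, and the other LUAD lines, with adjusted p of 0.236 to 0.96 in the authors' deposited table, did not. Split into arms with that fold change, the HLA-E level was 289.4 ppm with GSK3368712 and 135.5 with DMSO in NCIH1563, and 120.7 with GSK3368712 and 100.8 with DMSO in SW900. Every line thus had the higher HLA-E level in the GSK3368712 arm, by a margin that ranged widely.

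HLA-B, a classical heavy chain presenting peptides to CD8 T cells, was positive in 8 lines and negative in NCIH226 and SW900. Its values in the authors' deposited table were 0.30 in EBC1, 1.07 in LK2, −0.26 in NCIH226, 0.28 in NCIH520, 0.67 in SKMES1 and −0.20 in SW900. In LUAD lines the authors' deposited table lists HLA-B at 0.49 in NCIH1563, 0.96 in NCIH1975, 0.10 in NCIH522 and 0.52 in PC9. The call was higher in EBC1, LK2, NCIH520, SKMES1 and NCIH1563 and lower in NCIH226 and SW900. NCIH1975 had a large value but a standard error of 0.38 in the authors' deposited table, and was not called (adjusted p = 0.107). In LK2 the derived level was 6.44 ppm with GSK3368712 and 3.06 with DMSO, both below the lowest level of HLA-B in any other line.

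HLA-C, the other classical heavy chain of the set, had the same sign as HLA-B in all 10 lines. The authors' deposited table gives HLA-C 0.57 in LK2, 0.51 in SKMES1, 0.42 in NCIH1563, 0.24 in NCIH520 and 0.18 in EBC1, all called higher. It was −0.12 in NCIH226 and −0.08 in SW900 in the authors' deposited table, and neither was called. NCIH522 at 0.53, NCIH1975 at 0.51 and PC9 at 0.04 in the authors' deposited table were not called either.

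HLA-F, a non-classical heavy chain with a low level throughout, split by line. It was called higher in EBC1 at 0.76 and SKMES1 at 0.60 and lower in SW900 at −0.68 and NCIH226 at −0.44 in the authors' deposited table. NCIH522 had the largest HLA-F value, 1.16, with a standard error of 0.42 and an adjusted p of 0.171 in the authors' deposited table. The derived HLA-F level in SW900 was 11.5 ppm with GSK3368712 and 18.4 with DMSO, and in EBC1 it was 17.6 with GSK3368712 and 10.5 with DMSO.

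B2M, which encodes the light chain shared by the heavy chains, was called in fewer lines than HLA-B, HLA-C or HLA-E. The authors' deposited table calls B2M higher in LK2 at 0.30, SKMES1 at 0.30 and NCIH520 at 0.18, and lower in no line. The lowest B2M value in the authors' deposited table was −0.17 in NCIH226 and the highest 0.68 in NCIH1975, where the standard error was 0.39. The derived B2M level in EBC1 was 2481 ppm with GSK3368712 and 2241 with DMSO, so the highest B2M level of the series belonged to the same line in both arms.

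TAP1 and TAP2, which form a single transporter, shared a call only in NCIH226, where both were lower. TAP1 was called higher in LK2 at 1.25 and lower in SW900 at −0.65 and NCIH226 at −0.45 in the authors' deposited table. The remaining TAP1 values in the authors' deposited table ran from −0.41 in PC9 to 0.21 in NCIH1563, and none was called. LK2 is the line with the least TAP1: the derived level there was 4.16 ppm with GSK3368712 and 1.75 with DMSO. TAP2 was called lower in NCIH226 at −0.55, SKMES1 at −0.40 and EBC1 at −0.25 in the authors' deposited table. Only LK2 at 0.03 and NCIH520 at 0.15 had positive TAP2 values in the authors' deposited table, and neither was called.

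TAPBP, the tapasin gene, was called lower in NCIH226 at −0.84 and SW900 at −0.35 and higher in EBC1 at 0.22 in the authors' deposited table. In NCIH226 the derived TAPBP level was 118.1 ppm with GSK3368712 and 210.9 with DMSO. NLRC5, the class I transactivator, was called lower in NCIH1563 at −0.52, SW900 at −0.41, SKMES1 at −0.34 and NCIH226 at −0.32 in the authors' deposited table. The highest NLRC5 value in the authors' deposited table, 0.41 in NCIH520, was not called. NLRC5 was thus lower in SKMES1 and NCIH1563, where HLA-B, HLA-C and HLA-E were higher. It was also lower in NCIH226 and SW900, where HLA-B was called lower, at −0.256 and −0.195. In NCIH226 and SW900, HLA-C was negative but not called, and HLA-E was called higher.

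By line, the calls separate NCIH226 and SW900 from the rest. In NCIH226, 1 member was called higher and 6 lower, where 15.5% of all genes were higher and 15.8% lower. In SW900, 1 member was called higher and 5 lower, where 18.0% of all genes were higher and 17.7% lower. HLA-E was the single member called higher in each of these lines, and the other 8 members all had negative values there. In LK2, 5 of 7 listed members were called higher and 0 lower, beside 19.9% and 19.5% of all genes. EBC1 had 5 members higher and 1 lower, beside 23.0% and 23.4% of all genes, and SKMES1 5 higher and 2 lower, beside 15.8% and 15.6%. NCIH520 had 4 members higher and 0 lower, beside 11.4% and 12.3% of all genes, and NCIH1563 3 higher and 1 lower, beside 23.3% and 24.8%. In NCIH1975, NCIH522 and PC9 no member was called by the authors' adjusted p, and 7.91%, 1.66% and 4.48% of all genes were. The median of the members in NCIH1975 was 0.51, the standard errors there being 0.26 to 0.39 in the authors' deposited table. Of 4 markers of fibroblasts and endothelium, NCIH226 listed 2, the collagen genes COL1A1 and COL3A1, and SW900 listed 1, COL1A1. PECAM1 and VWF were listed in neither line. The listed markers summed to 1146 ppm in NCIH226 and 1321 in SW900, against 6.16 to 679.3 in the other lines. Epithelial markers summed to 12826 ppm in NCIH226, the highest of all lines, and to 3134 in SW900. The part of the collagen genes in the members' direction was not tested.

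**Figure D2:**
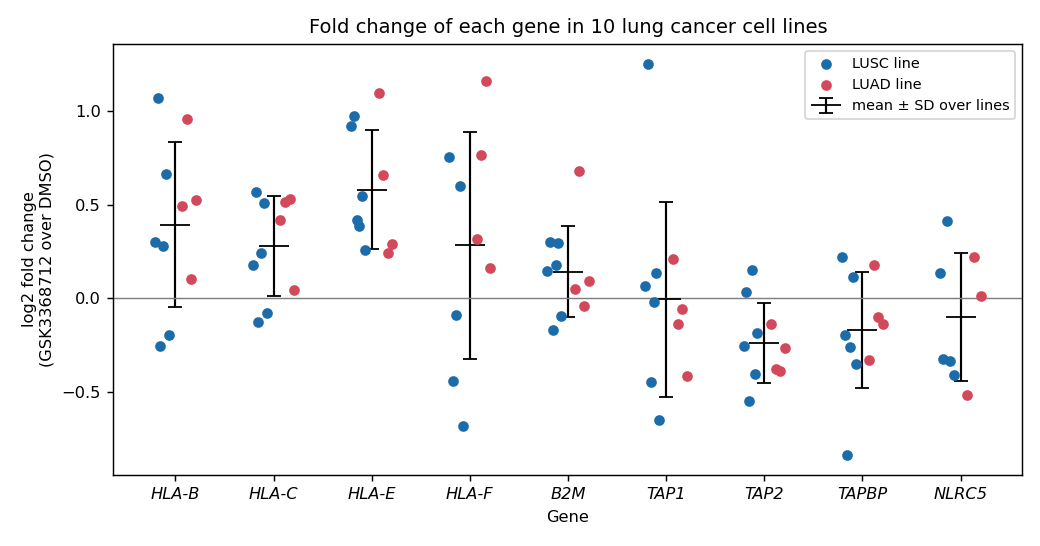
Log2 fold change of GSK3368712 over DMSO (vertical axis) for each gene, with a point for each LUSC line (blue) and each LUAD line (red) and the mean ± SD over lines in black. HLA-E lies above 0 in all 10 lines with a mean of 0.58, TAP2 has a mean of −0.24 with 8 lines below 0, and the LK2 value of TAP1, 1.25, stands far above the other TAP1 values.

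The second comparison asked whether members changed across the lines, with 1 fold change per line and limma's moderated test over the 9339 genes with values in all 10 lines. Of the 7 members in that fit, HLA-E, HLA-B and HLA-C were higher, TAP2 was lower, and B2M, TAP1 and TAPBP did not pass, where 9.5% of all genes were higher and 12.1% lower. The median of the 7 means was 0.14, against 0.0043 over all genes tested. HLA-E averaged 0.58 ± 0.32 (SD, n = 10 lines), a 1.49-fold higher level, with a limma adjusted p of 0.00119. HLA-B averaged 0.39 ± 0.44 (limma adjusted p = 0.0374) and HLA-C 0.28 ± 0.27 (limma adjusted p = 0.0316), each higher in 8 of 10 lines. TAP2 averaged −0.24 ± 0.21 (limma adjusted p = 0.0365) and was lower in 8 of 10 lines.

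B2M averaged 0.14 ± 0.24 (limma adjusted p = 0.226), TAPBP −0.17 ± 0.31 (limma adjusted p = 0.225) and TAP1 −0.01 ± 0.52 (limma adjusted p = 0.986). In the fit of 13641 genes with values in at least 5 lines, where 9.31% were higher and 10.2% lower, HLA-F averaged 0.28 ± 0.61 over 9 lines (limma adjusted p = 0.297) and NLRC5 −0.10 ± 0.34 over 8 lines (limma adjusted p = 0.595). HLA-B had a limma adjusted p of 0.0516 in that wider fit. HLA-E passed whichever line was left out, with limma adjusted p of 0.00117 to 0.00381. The HLA-B call was lost without EBC1, LK2, NCIH520, SKMES1, NCIH1975 or PC9 (limma adjusted p = 0.0582 to 0.0861). The HLA-C call was lost without LK2, NCIH520, SKMES1, NCIH1975 or NCIH522 (0.0550 to 0.0759), and the TAP2 call without EBC1, NCIH226, SKMES1, SW900, NCIH1975, NCIH522 or PC9 (0.0535 to 0.0883).

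**Figure D3:**
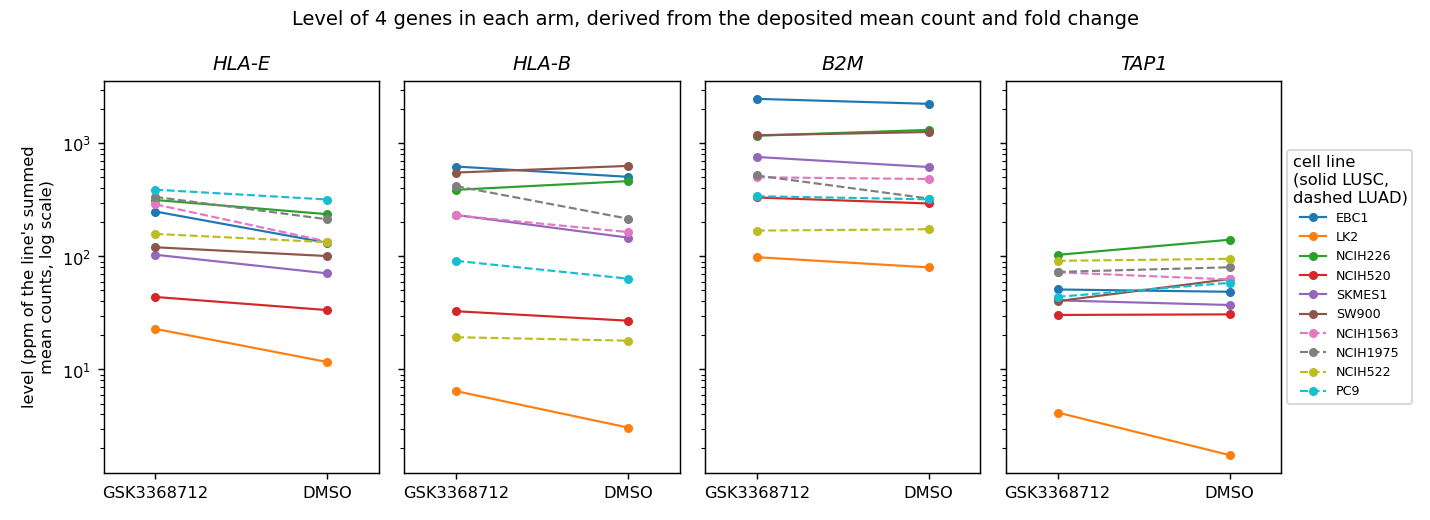
Level of HLA-E, HLA-B, B2M and TAP1 in the GSK3368712 arm (left) and the DMSO arm (right) of each cell line, in ppm of the line's summed mean counts on a log axis, derived from the deposited mean count and fold change. The lines differ far more between each other than the arms of a line do, and LK2 is the lowest line in every panel, with HLA-B at 6.44 in the GSK3368712 arm and 3.06 in the DMSO arm.

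The third comparison asked whether the lines differ in their response beyond the standard errors of the authors' deposited table. By Cochran's Q, all 7 members with values in all lines differed between lines, where 65.9% of all genes did, so this is common among genes. The share of the variation above the standard errors was 91.8% for HLA-B, 90.8% for TAP1, 89.3% for TAPBP, 87.1% for HLA-E, 85.6% for HLA-C, 77.9% for B2M and 69.9% for TAP2. HLA-F and NLRC5 also passed among genes in at least 7 lines, of which 66.2% did, with shares of 89.8% and 78.0%. The standard errors rest on 2 libraries per arm, and with errors widened 1.5 times the call ended for B2M (adjusted p = 0.137) and TAP2 (adjusted p = 0.379). Without NCIH226, TAP2 also missed the threshold (adjusted p = 0.0611). The SD of TAP1 over lines was larger than that of 90.4% of genes and that of HLA-B larger than 82.6%, whereas TAP2 exceeded 23.4%.

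The row labels also allow a comparison of LUSC with LUAD lines. No member differed by limma's adjusted p (0.873 to 0.999), none had an unadjusted p under 0.05, and of all genes 0.0107% passed, which is 1 gene, with 511 at an unadjusted p under 0.05. For HLA-F and NLRC5 the fit used genes in at least 7 lines, of which 0.0167% passed. HLA-E averaged 0.58 ± 0.30 in the 6 LUSC lines and 0.57 ± 0.40 in the 4 LUAD lines. HLA-B averaged 0.31 ± 0.51 in LUSC and 0.52 ± 0.35 in LUAD lines. The largest difference was that of HLA-F, 0.03 ± 0.63 in 5 LUSC lines and 0.60 ± 0.45 in 4 LUAD lines, a LUSC minus LUAD value of −0.57 with a standard error of 0.33. TAP1 averaged 0.06 ± 0.66 in LUSC and −0.10 ± 0.26 in LUAD lines.

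Within a line, heavy chains and the light chain can be set against each other directly, since both values come from the same libraries. For 7 pairs, the signs of the differences were permuted over lines in an exact two-sided test, with Benjamini-Hochberg adjustment over the pairs, and 3 pairs differed. The pairs were chosen with earlier results of these data known, and the adjustment covers only the chosen pairs. HLA-E exceeded B2M by 0.44 ± 0.32 on the log2 scale, in 9 of 10 lines (exact adjusted p = 0.0273). HLA-B exceeded B2M by 0.25 ± 0.27, in 8 of 10 lines (exact adjusted p = 0.0456), and HLA-E exceeded HLA-C by 0.30 ± 0.31, in 9 of 10 lines (exact adjusted p = 0.0456). The exceptions were NCIH1975 for HLA-E and B2M, where the difference was −0.02, NCIH226 and SW900 for HLA-B and B2M, and NCIH522 for HLA-E and HLA-C.

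HLA-C minus B2M was 0.14 ± 0.22 (exact adjusted p = 0.133), HLA-E minus HLA-B 0.19 ± 0.37 (exact adjusted p = 0.173) and HLA-F minus B2M 0.16 ± 0.53 over 9 lines (exact adjusted p = 0.402). TAP1 minus TAP2 was 0.23 ± 0.46 (exact adjusted p = 0.173), ranging from −0.46 in SW900, where both genes were negative, to 1.22 in LK2, where both were positive. The smallest p that 10 lines can give is 0.00195. Leaving out EBC1, LK2, NCIH520, SKMES1, NCIH1563 or PC9 left no pair past the threshold, with an exact adjusted p of 0.0547 for HLA-E minus B2M each time. HLA-E minus HLA-C also missed the threshold without NCIH226 or SW900 (8 of 10 lines in all, exact adjusted p = 0.0638 to 0.0912), and HLA-B minus B2M without NCIH522 (exact adjusted p = 0.0547). HLA-C minus B2M passed without NCIH1975 (exact adjusted p = 0.0479).

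**Figure D4:**
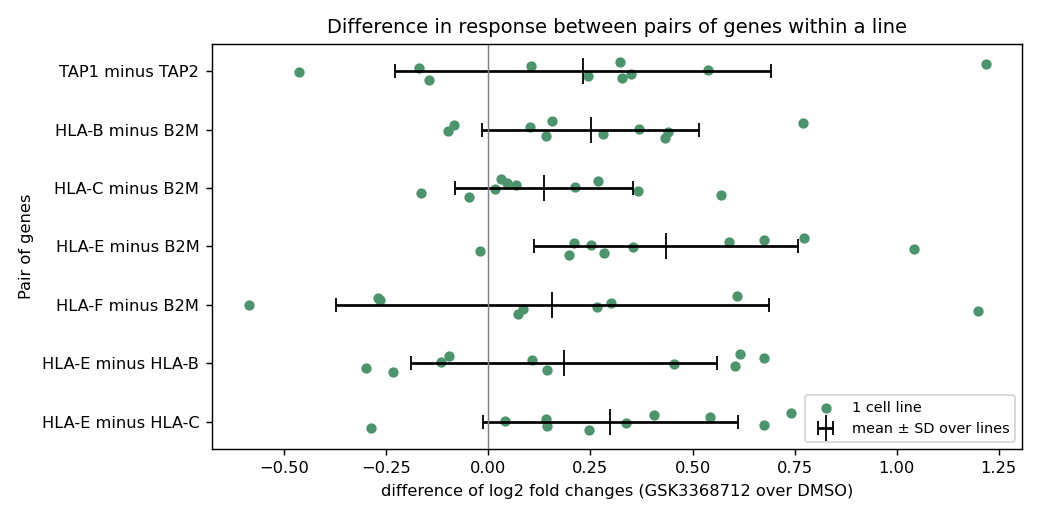
Difference between the log2 fold changes of 2 genes in the same line (horizontal axis) for 7 pairs, with a point per cell line and the mean ± SD over lines in black. HLA-E minus B2M is positive in 9 of 10 lines with a mean of 0.44, and TAP1 minus TAP2 runs from −0.46 to 1.22.

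Over lines, the members' fold changes were alike to different degrees, described by Pearson r without a test since all genes of a line share its libraries. Of 36 pairs of members, 34 had a positive r, with a median of 0.44. The highest were HLA-B with B2M (r = 0.85, 10 lines), HLA-C with HLA-F (0.83, 9 lines) and HLA-B with HLA-C (0.75, 10 lines). TAP1 and TAP2, neighbouring genes for the subunits of a transporter, had r = 0.48, and TAP2 with TAPBP 0.04. NLRC5 had 0.34 with HLA-B, 0.16 with HLA-C and −0.14 with HLA-E over 8 lines.

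Among the 9049 other genes with a symbol in all 10 lines, those most alike in fold change were CHMP4A (r = 0.88) and PTGR1 (0.87) for HLA-B, BACE1 (0.88) and ATAT1 (0.87) for HLA-C, and NTPCR (0.97) and SEZ6L2 (0.96) for HLA-E. For B2M they were TCTN1 (0.92) and USO1 (0.91). For TAP1 they were LY6E (0.95) and PCOLCE (0.92), for TAP2 ARHGAP23 (0.89) and TBC1D24 (0.85), and for TAPBP SH3BGRL (0.94) and MTCP1 (0.91). Members were left out of this ranking, which was made only for members with values in all lines. The highest r between 2 members, 0.85 for HLA-B with B2M, was below the values given here for either gene. The r values of the genes named here are the highest of many over 10 lines, and no test was made.

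The partners of the members in antigen presentation were counted by list in the same fit. Of 11 genes that produce or trim peptides, 8 had values in all lines, of which 0 were higher, 1 was lower and 7 did not pass, so that 12.5% passed against 21.6% of all genes, with a median of −0.03 against 0.0043 over all genes. THOP1, a cytosolic peptidase that destroys peptides, was lower at −0.46 ± 0.34 (limma adjusted p = 0.00633). The immunoproteasome genes PSMB8, at 0.14 ± 0.28, and PSMB10, at 0.10 ± 0.37, did not pass (limma adjusted p = 0.292 and 0.580). PSMB9, the other immunoproteasome gene, averaged −0.12 ± 0.58 over 9 lines in the fit of genes in at least 5 lines (limma adjusted p = 0.667). The authors' deposited table calls PSMB9 lower in NCIH226 at −1.395 and higher in SKMES1 at 0.529. ERAP2, an aminopeptidase that trims peptides in the endoplasmic reticulum, was higher at 0.60 ± 0.48 over 8 lines in the fit of genes in at least 5 lines (limma adjusted p = 0.0227), whereas its relative ERAP1 averaged −0.07 ± 0.54 (limma adjusted p = 0.772). A line may list ERAP2 through the arm in which it was higher, so the ERAP2 values describe only the lines that list it.

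Of 8 folding and loading partners, 7 had values in all lines, of which 0 were higher, 1 was lower and 6 did not pass, so that 14.3% passed against 21.6% of all genes, with a median of −0.01. The lower gene was HSP90B1, an endoplasmic reticulum chaperone, at −0.25 ± 0.27 (limma adjusted p = 0.0487). CALR, CANX and PDIA3, chaperones of the peptide loading complex, averaged −0.01 ± 0.19, 0.01 ± 0.52 and 0.02 ± 0.21, and none passed (limma adjusted p = 0.865 to 0.969). TAPBPL, the tapasin relative that edits peptides, averaged −0.06 ± 0.36 over 8 lines (limma adjusted p = 0.780).

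Transcription factors of class I promoters and genes of interferon gamma signalling are given singly, with no count or median, since neither list is reported whole. IRF1, an interferon-induced activator, was higher at 0.36 ± 0.41 (limma adjusted p = 0.0438). RFXAP, a subunit of the RFX complex, was lower at −0.79 ± 0.28 over 8 lines (limma adjusted p = 0.000969), while the other subunits RFX5, at 0.04 ± 0.37, and RFXANK, at 0.05 ± 0.27, did not pass. The RFXAP values describe only the lines in which it passed the expression filter. The factors IRF2, NFYA, NFYB, NFYC, CREB1, ATF1, RELA and NFKB1 had means between −0.18 and 0.12 in all lines and did not pass, and CIITA was listed in 2 lines with no test. IFNGR1, a chain of the interferon gamma receptor, was higher at 0.45 ± 0.39 (limma adjusted p = 0.0121). It was positive in 10 of 10 lines, as were 4.39% of genes with values in all lines. IRF9 was higher at 0.32 ± 0.32 (limma adjusted p = 0.0321). IFNGR2, the other chain of the receptor, at 0.10 ± 0.26, and the receptor's kinase JAK1, at 0.28 ± 0.48, did not pass (limma adjusted p = 0.452 and 0.153). JAK2, STAT2, SOCS1, SOCS3 and PTPN2, other kinases, transducers and inhibitors of the pathway, had means between −0.30 and 0.10 over the 7 to 10 lines that list them and did not pass.

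Of 7 other class I like molecules, 6 had values but none in all lines, and none of the 4 in at least 5 lines passed in the wider fit. AZGP1, a secreted relative of class I heavy chains, averaged 1.02 ± 0.68 in the 4 lines that list it. Of 304 genes annotated in the MHC region between HLA-F and TAPBP, members left out, 75 had values in all lines, of which 16 were higher and 8 lower, or 32.0% against 21.6% of all genes, with a median of 0.03. HLA-F-AS1, the antisense RNA of HLA-F, was higher at 1.06 ± 0.42 over 7 lines (limma adjusted p = 0.00172), beside the HLA-F mean of 0.28. Reads of the gene and its antisense partner may not be told apart if strand was not used. AZGP1 and HLA-F-AS1 passed the expression filter only in the lines that list them. A line may list them through the arm in which they were higher, so their values describe those lines.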

How the data were processed

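RNA sequencing was done in 40 libraries, 2 per arm, of 10 cell lines given GSK3368712 or DMSO. Libraries were made from total RNA with a strand-keeping mRNA kit, per the labels' protocols. Per the submitters' processing notes, FastQC, Salmon 0.12.0, DESeq2 (version not given in the sources used here) and GRCh38 were used. Genes at or below an FPKM of 1 were dropped from a comparison by the authors, per the labels. The only file is the authors' deposited table of comparisons, with log2 fold changes and standard errors in log2 units, adjusted p-values, a test score, mean normalized counts (a signal pooled over both arms of a line) and a mark. Per-sample columns that were not used numbered 0. Per the labels, libraries were sequenced paired-end with reads of 151 bases to 100000000 reads each. Values per library were not analysed here, so the depth reached is unknown and counting intervals are left out. Whether libraries of an arm are separate cultures is not labelled, and within-line p-values may then measure technical spread.

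Arm levels were derived from the deposited mean count and fold change, taking both arms as equally weighted. Computed here, in R 4.3.3 with limma 3.58.1 and Python 3.11.15, were a moderated one-sample test over lines, a two-group test of subtypes, Cochran's Q from the deposited standard errors, and exact sign-flip tests of 7 pairs. P-values were adjusted by Benjamini-Hochberg over all genes tested (pairs: over the pairs), at 0.05. The tests were tested on simulated data. Members, gene lists, pairs and motifs were chosen with earlier results of these data known. Named genes are the members, genes of the lists, and the 2 genes most alike to each member in all lines. An item of the lists of transcription factors and of interferon gamma signalling is not reported here. Of 19280 gene IDs, 19245 matched GENCODE 29. Promoters are RefSeq's, and HLA-E and NLRC5 were not matched there. Alternatives were stricter thresholds, recomputed adjustment, other filters, centring, scaling, robust variance, random effects, subtypes alone and lines left out.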

Additional observations from a re-analysis of the deposited data

Results flagged for a closer look

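The TAP1 log2 fold change in LK2, 1.252 in the authors' deposited table, stood apart from the other 9 lines: its gap to the next value was 0.548 of the whole range, above Dixon's critical value of 0.466 for 10 samples. It was the only value so marked in 26 groups of member values examined, and chance marks about 1 in 20 groups. Without LK2 the mean of TAP1 over lines was −0.14 in place of −0.01. LK2 also had the lowest TAP1 level, with 4.16 parts per 1000000 of the line's mean counts in the GSK3368712 arm and 1.75 in the DMSO arm. The part of that low level in the fold change was not tested.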

How the results depend on the processing

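Counts across lines depended most on which lines were used. Against 3 members higher and 1 lower in all 10 lines, LUSC lines alone gave 1 and 0, LUAD lines alone 0 and 0, and the 7 lines without NCIH1975, NCIH522 and PC9 1 and 0; the cause was not tested, and each uses fewer lines. Leaving out 1 line gave 1 to 3 higher (1 without LK2, NCIH520, SKMES1 or NCIH1975) and 0 to 1 lower (0 without EBC1, NCIH226, SKMES1, SW900, NCIH1975, NCIH522 or PC9), 0 to 4 differing pairs against 3, 6 to 7 members differing between lines, and 0 differing between LUSC and LUAD. HLA-E lost its call in LUAD lines alone (adjusted p = 0.355). At an adjusted p of at most 0.01, 9 member values were called lower against 15. The mean of TAP1 turned to 0.0575 in LUSC lines alone and 0.0793 without NCIH1975, NCIH522 and PC9, and ran from −0.145 to 0.0663 when single lines were left out. Likewise LUSC minus LUAD ran from −0.0822 to 0.298 for TAP1, −0.0967 to 0.187 for HLA-E, −0.165 to 0.0745 for B2M and −0.209 to 0.0029 for TAPBP. Centring, scaling, robust variance, random effects and the top 75% of genes by expression changed no count by over 1.5 times; the last gave no value for HLA-F. No paired analysis was possible because the deposited table holds comparisons per line and no values per library. The depth reached per library is unknown, beside a labelled 100000000 reads.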

Other observations

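Genes of MHC class II, which present peptides to CD4 T cells, were listed in fewer lines than most class I members. Of 46 values of 11 class II genes, including the invariant chain CD74 and the transactivator CIITA, 42 were positive with a median of 0.77, beside a median of 0.14 over the 87 class I values, and the authors' deposited table calls 25 higher and 0 lower, where 13.7% and 13.8% of all values of all genes were called higher and lower. By the authors' deposited table, all 8 listed values were called higher in EBC1, with a median of 1.04, beside 23.0% of all genes, and 4 of 4 in NCIH1563, with a median of 1.76, beside 23.3% of all genes. In NCIH1975 the authors' deposited table calls 6 of 7 higher, with a median of 1.42, beside 7.91% of all genes called in either direction. NCIH522, which lists the most class II genes, had 1 of 9 called higher by the authors' deposited table, with a median of 0.23, beside 1.66% of all genes in either direction. PC9 had 0 of 4 called, with a median of 0.48, and NCIH226 had 1 of 3 positive, with a median of −0.25, by the authors' deposited table. HLA-DMA, a peptide editor of class II, averaged 1.02 ± 0.88 over 8 lines, its partner HLA-DMB 1.38 ± 0.78 over 5 lines, and the beta chains HLA-DRB1 0.73 ± 0.54 over 5 lines and HLA-DQB1 0.71 ± 0.76 over 6 lines. HLA-DRA, a class II alpha chain, stood at 2.50 in NCIH1975 and 1.10 in EBC1 in the authors' deposited table, and CD74 at 1.44 in SKMES1 and 1.42 in NCIH1975. SW900, in which 8 of 9 class I members were negative, had 6 of 7 class II values positive and 3 called higher in the authors' deposited table. CIITA was listed in 2 lines and no class II gene in LK2. Levels ran from 0.836 parts per 1000000 of the line's mean counts for HLA-DOB in NCIH522 to 340.4 for CD74 in EBC1, where HLA-E stood at 191.0. These genes passed the expression filter only in the lines that list them, so a line may list a gene through the arm in which it was higher. No test is given, and the values describe those lines.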
